A study of Mus musculus with 8 samples.

Results

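Bone marrow progenitors carrying HOXA9 were compared with non-transduced progenitors after the loss of Ring1b, and the comparison was set beside the same one made with Ring1b present. All cells came from C57BL/6 mice that the labels give as Ring1a-/- and Cdkn2a-/-, lacking the paralogue of Ring1b and the Ink4a/Arf tumour suppressors. Marrow depleted of lineage-positive cells (Lin-), prepared with a progenitor enrichment kit, was treated with OHT (4-hydroxytamoxifen) or ethanol for 72 h, and the age of the mice is not given. Cells transduced with HOXA9 and treated with OHT, labelled Ring1b KO, are called HOXA9 KO here, and non-transduced (NT) cells treated with OHT are called NT KO. HOXA9 WT and NT WT are the ethanol-treated counterparts, labelled Ring1b WT. The deposited table of the NT cells heads its columns with the word Empty, so that cells without any vector and cells with an empty vector cannot be told apart, and the vector is not described. The comparison therefore rests on 2 of the 8 libraries of the study, 1 per side, and the Ring1b-present pair adds 2 other libraries. With 1 library a side no test of the difference after Ring1b loss was possible, and each fold below carries a 95% interval that covers counting error only. Normalised read counts are given throughout, scaled jointly over the 8 libraries, and differences are on the log2(value + 1) scale, HOXA9 minus NT. That scale understates differences of transcripts with low values. Of 19353 RefSeq transcripts, 11086 reached 20 in the higher library of the after-loss pair and were counted, and a difference of at least 2-fold was called.

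Ring1b and Ring1a are the alternative ubiquitin ligases of Polycomb repressive complex 1 (PRC1), which marks histone H2A and keeps developmental genes silent. HOXA9 is a homeodomain transcription factor of haematopoietic stem and progenitor cells that is switched off during maturation and is highly expressed in many acute myeloid leukaemias, where it acts with MEIS and PBX partners. The comparison asks which HOXA9 differences stay without Ring1b.

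The libraries held 6641843 reads in HOXA9 KO and 5699203 reads in NT KO cells, and 6657911 reads in HOXA9 WT and 6998223 reads in NT WT cells. At this depth 100 reads carry a 95% interval of 81.4 to 122. The lowest entry of each library equals 1 read, and whether it stands for 0 or 1 read is not known. Rnf2, which encodes Ring1b, had 856 in HOXA9 KO and 802 in NT KO cells, against 896 in HOXA9 WT and 666 in NT WT cells. The labels do not say which exons are deleted, so a whole-transcript count does not check the loss. Ring1, labelled as knocked out in all cells, still had 47.1 in HOXA9 KO and 43.6 in NT KO cells, and 191 in HOXA9 WT and 109 in NT WT cells. The 2 Cdkn2a transcripts were low in both, at 25.3 and 36.2 in HOXA9 KO and 39.5 and 30.1 in NT KO cells. Stem and progenitor surface and signalling genes were present, and their values summed over 24 transcripts to 13720 in HOXA9 KO and 25280 in NT KO cells, and to 9442 in HOXA9 WT and 17110 in NT WT cells. Of the 24 genes of this list, 9 are also in another list, Kit and Il1rl1 of the mast cell list among them. The high NT values of Il1rl1, given below, enter these sums, so the gap is not one of stem cell genes alone. Cd34 stood at 61.5 in HOXA9 KO and 117 in NT KO cells, whereas the macrophage receptor gene Csf1r stood at 3763 in HOXA9 KO and 1778 in NT KO cells, although lineage depletion should remove mature cells.

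After Ring1b loss, 1431 transcripts were at least 2-fold higher in HOXA9 cells (12.9% of those counted) and 1127 were at least 2-fold lower (10.2%). In 557 of the higher and 545 of the lower transcripts the other library lay below 20, so these were counted through 1 library alone. The median difference over all counted transcripts was -0.01. With Ring1b present the corresponding counts were 1257 higher (11.6% of 10882) and 794 lower (7.30%). Of the 1257 transcripts higher with Ring1b, 585 (46.5%) were again higher after its loss, 464 (36.9%) lay within 2-fold, 59 (4.69%) were lower and 149 fell below the count minimum. Of the 794 lower with Ring1b, 461 (58.1%) stayed lower, 229 lay within 2-fold, 37 (4.66%) were higher and 67 fell below the minimum. Among the 10424 transcripts counted in both states, 5.61% were thus higher in both and 4.42% lower in both. Looked at from the other side, 40.9% of the transcripts higher after loss and 40.9% of those lower after loss already differed that way with Ring1b.

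The very large differences after loss were mostly lower values in HOXA9 cells. At least 16-fold lower in HOXA9 KO than in NT KO cells were 167 transcripts, against 50 at least 16-fold higher. With Ring1b present the balance was the opposite, with 108 lower and 157 higher by that much. Which library differed between the states was counted for the transcripts called in 1 state only. Among the 464 transcripts that were higher in HOXA9 with Ring1b and within 2-fold afterwards, 265 were at least 2-fold higher in NT KO than in NT WT cells and 98 were at least 2-fold lower in HOXA9 KO than in HOXA9 WT cells. Among 604 transcripts higher after loss and within 2-fold before it, 268 were at least 2-fold lower in NT KO than in NT WT cells, and 135 at least 2-fold higher in HOXA9 KO than in HOXA9 WT cells. Among 360 transcripts lower after loss and within 2-fold before it, 144 were at least 2-fold higher in NT KO than in NT WT cells and 69 at least 2-fold lower in HOXA9 KO than in HOXA9 WT cells. The balance was the other way among the 229 transcripts lower with Ring1b and within 2-fold afterwards, of which 105 were at least 2-fold higher in HOXA9 KO than in HOXA9 WT cells and 51 at least 2-fold lower in NT KO than in NT WT cells. These counts describe transcripts selected on the same values and were not tested.

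**Figure D1:**
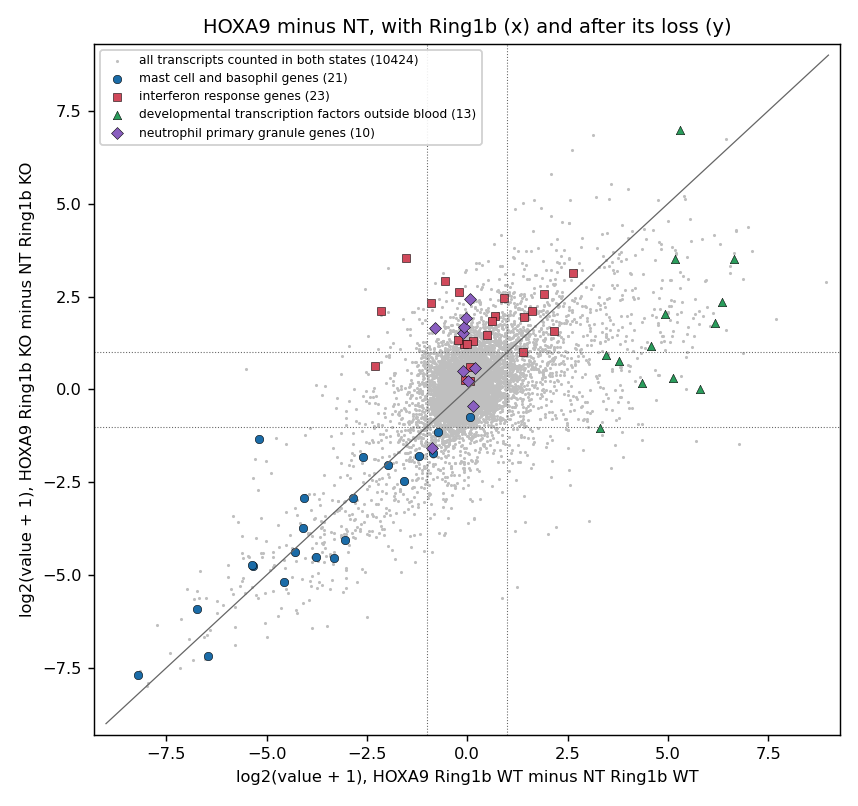
Each point is a transcript counted in both states (10424), with the HOXA9 minus NT difference on the log2(value + 1) scale for the Ring1b WT pair on the x axis and for the Ring1b KO pair on the y axis; dotted lines mark 2-fold and the diagonal marks equal differences. Mast cell and basophil genes lie along the diagonal at the lower left, and most interferon response genes lie above it. Most developmental transcription factor genes lie below it at the right, whereas Pitx1 lies above it, at 6.99 after loss and 5.31 with Ring1b.

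The only test that the design allows asks about the HOXA9 minus NT difference averaged over both Ring1b states, with its spread taken from how differently the 4 contexts of the study (HOXA9, MLL-AF9, PML-RARa and NT) changed with OHT, on 3 residual degrees of freedom. With limma and Benjamini-Hochberg adjustment over 10599 transcripts, 66 were higher (0.623%) and 168 lower (1.59%) at an adjusted p under 0.05. Without the MLL-AF9 pair in the fit 35 were higher and 117 lower, and DESeq2 on the recovered reads called 503 higher and 533 lower. All 12 of the lowest-ranked genes after loss passed it, and 4 of the 12 highest-ranked did. Of the 10 genes ranked lowest in both states 10 passed, and of the 10 ranked highest in both states 5 passed. None of the 16 genes chosen for the largest change between the states passed, and the change between states itself could not be tested. Genes ranked by these differences were chosen on values that enter the average.

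Hoxa9 itself had 252 in HOXA9 KO cells, against 6.23 in NT KO cells, and 249.9 in HOXA9 WT against 20.7 in NT WT cells. The HOXA9 libraries were thus alike in both states, while the NT level was lower after OHT. Reads of the introduced gene and of the endogenous gene cannot be told apart. Its difference after loss was 40.5-fold (18.4 to 111), and the average over both states was 4.33 ± 0.52 on the log2 scale (SE, limma adjusted p = 0.0345).

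Several posterior and A-cluster Hox genes, which give positional identity to body segments and are also used by early blood cells, were higher in HOXA9 cells after loss. Of 40 Hox transcripts, 16 were counted after loss, of which 9 were higher and 3 lower, with a median of 1.14. For comparison, 12.9% of all transcripts were higher and 10.2% lower, and 9 of the 16 Hox transcripts were counted through 1 library alone. With Ring1b present 7 of 11 were higher and 2 lower, against 11.6% and 7.30% of all transcripts. The introduced gene, Hoxa9, is among the higher transcripts in both states and enters the median. Hoxa11 had 181 in HOXA9 KO and 10.4 in NT KO cells, against 245.7 in HOXA9 WT and 4.14 in NT WT cells. Hoxb13 had 52.5 in HOXA9 KO and 3.12 in NT KO cells, and 42.3 in HOXA9 WT and 2.48 in NT WT cells. In each case the HOXA9 and NT libraries were far apart in both states. The average difference of Hoxb13 was 3.67 ± 0.27 (SE, limma adjusted p = 0.0126), and that of Hoxa11 was 4.79 ± 0.82 (adjusted p = 0.0748). Hoxa5, with 86.0 in HOXA9 KO and 20.8 in NT KO cells, and Hoxa7, with 109 in HOXA9 KO and 31.2 in NT KO cells, were higher by 4.14-fold (2.54 to 7.08) and 3.48-fold (2.32 to 5.39). With Ring1b Hoxa5 lay within 2-fold, at 63.9 in HOXA9 WT and 38.9 in NT WT cells. Hoxd8 went the other way after loss, with 8.14 in HOXA9 KO and 24.9 in NT KO cells, whereas it had 16.6 in HOXA9 WT and was at the lowest entry in NT WT cells; its call ended with a pseudocount of 10. Hoxb2 was at the lowest entry in HOXA9 KO cells and had 24.9 in NT KO cells.

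The HOX partner and target genes did not form 1 pattern. Of 20 counted transcripts of the HOX/MEIS leukaemia list, 8 were higher and 6 lower after loss, with a median of -0.26, where 12.9% of all transcripts were higher and 10.2% lower. With Ring1b present 4 of 16 were higher and 5 lower, against 11.6% and 7.30% of all transcripts. Flt3, a cytokine receptor of multipotent progenitors, had 71.5 in HOXA9 KO and 13.5 in NT KO cells, and 109.6 in HOXA9 WT and 15.7 in NT WT cells. Sox4, a progenitor transcription factor, had 395 in HOXA9 KO and 141 in NT KO cells, a 2.80-fold difference (2.30 to 3.42). Meis1, the HOX cofactor gene, went the other way, with 3.62 in HOXA9 KO and 69.6 in NT KO cells, and 8.30 in HOXA9 WT and 22.3 in NT WT cells. That is 19.2-fold lower after loss (7.17 to 72.6), and its average over both states did not pass (limma adjusted p = 0.183). Bcl2, the anti-apoptotic gene, had 418 in HOXA9 KO and 1339 in NT KO cells, while the WT pair lay within 2-fold, at 722 in HOXA9 WT and 592 in NT WT cells.

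Mast cell and basophil genes had the lowest median of the 30 lists examined, in both states. These cells take part in allergy, hold granules with proteases and histamine, and carry the IgE receptor. Of 26 transcripts of 21 genes, 23 were counted after loss, of which 21 were lower and 1 higher, with a median of -3.58; the background was 10.2% lower. Among the 14 that had 20 or more in both libraries, 13 were lower. Without transcripts above 0.5 reads per base 8 were lower. With Ring1b present 18 of 21 counted were lower (7.30% of all transcripts were), with a median of -3.77. The list's values summed to 7915 in HOXA9 KO and 38710 in NT KO cells, and to 7542 in HOXA9 WT and 27170 in NT WT cells. In bulk RNA, fewer mast cells and less mast cell RNA per cell cannot be told apart.

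Mcpt2, a mast cell chymase gene, had 5.43 in HOXA9 KO and 1329 in NT KO cells, against 2.49 in HOXA9 WT and 1031 in NT WT cells. It was 245-fold lower after loss (112 to 668), and the average difference was -7.95 ± 0.26 (SE, limma adjusted p = 0.00423). Mcpt1, a related chymase gene, had 2.71 in HOXA9 KO and 537 in NT KO cells. Whether Mcpt1 and Mcpt2 share reads was not tested. Mcpt4, another chymase gene, had 21.7 in HOXA9 KO and 1367 in NT KO cells, 63.0-fold lower (42.1 to 98.6). Il1rl1, the receptor gene for interleukin 33, was lower in both of its transcripts, and the better-read one had 296 in HOXA9 KO and 6126 in NT KO cells, against 219 in HOXA9 WT and 4273 in NT WT cells. Fcer1a, the IgE receptor alpha chain gene, was picked after its values were seen and had 69.7 in HOXA9 KO and 1906 in NT KO cells, and 33.2 in HOXA9 WT and 1388 in NT WT cells. The 2 HOXA9 libraries thus lay far below the 2 NT libraries for each of these genes. Of the 19 transcripts of the list in the averaged fit, 11 passed as lower and 0 as higher. Cpa3, the most abundant granule protease gene of the list, differed by 2.21-fold (2.08 to 2.35), with 1336 in HOXA9 KO and 2952 in NT KO cells. It reached 1.96 reads per base in its highest library, near the 2.12 that was the largest of any transcript. Whether counts flatten at that level was not tested. Mitf, a mast cell and pigment cell transcription factor, was the exception, with 27.1 in HOXA9 KO and 5.20 in NT KO cells.

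**Figure D2:**
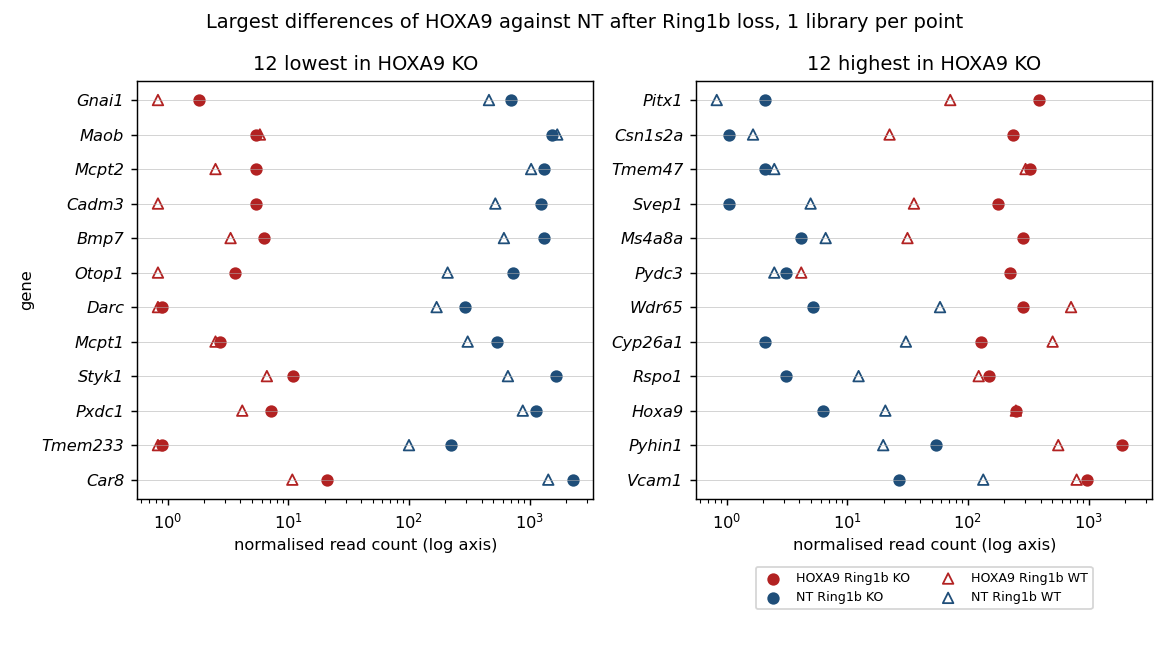
Normalised read counts on a log axis for the 12 lowest (left) and 12 highest (right) differences of HOXA9 KO against NT KO cells among transcripts with at least 100 in the higher library; each point is 1 library, circles are Ring1b KO and triangles Ring1b WT, red is HOXA9 and blue NT. For the 12 lowest genes both HOXA9 libraries lie at 20.8 or below and both NT libraries at 100.1 or above, while among the 12 highest Pydc3 has its Ring1b WT pair close together, at 4.15 in HOXA9 and 2.48 in NT cells.

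The other genes at the bottom of the ranking followed the same course as the mast cell proteases in the 4 libraries. Gnai1, an inhibitory G protein subunit gene, had 1.81 in HOXA9 KO and 708 in NT KO cells, and was at the lowest entry in HOXA9 WT against 461 in NT WT cells. Its ratio after loss was 391-fold (108 to 3235), on 2 reads in HOXA9 KO cells. Maob, a monoamine oxidase gene, had 5.43 in HOXA9 KO and 1546 in NT KO cells, and 5.81 in HOXA9 WT and 1697 in NT WT cells, an almost identical difference in both states (-7.91 after loss and -7.96 with Ring1b). Bmp7, a growth factor gene of the BMP family, had 6.33 in HOXA9 KO and 1317.5 in NT KO cells. Cadm3, an adhesion molecule gene, had 5.43 in HOXA9 KO and 1242 in NT KO cells. Bmp7 had 7 reads in HOXA9 KO and 4 in HOXA9 WT cells. Cadm3 had 6 reads in HOXA9 KO and was at the lowest entry in HOXA9 WT cells. Darc, the atypical chemokine receptor of red cells and endothelium, was at the lowest entry in HOXA9 KO and had 289.9 in NT KO cells, at least 107-fold lower against a floor of 3 reads per library. Tmem233, at the lowest entry in both HOXA9 libraries, was at least 82.7-fold lower after loss by that floor. Their averages over both states passed the test, with limma adjusted p-values of 0.00664 for Gnai1 and Maob, 0.00798 for Bmp7, 0.00577 for Cadm3, 0.00664 for Darc and 0.0287 for Tmem233.

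Platelet and megakaryocyte genes were lower as well. Of 22 transcripts, 20 were counted after loss, 16 of them lower and 1 higher, with a median of -2.29 (10.2% of all transcripts were lower). With Ring1b present, 14 of 18 were lower (7.30% of all transcripts were) and none higher, with a median of -2.18. The summed values were 12480 in HOXA9 KO and 26210 in NT KO cells, and 11910 in HOXA9 WT and 16670 in NT WT cells. Gp5, a subunit gene of the platelet von Willebrand factor receptor, had 62.4 in HOXA9 KO and 1165 in NT KO cells, against 38.2 in HOXA9 WT and 299 in NT WT cells, and was 18.6-fold lower after loss (14.6 to 24.1; average limma adjusted p = 0.0372). Gp1ba, of the same receptor, had 32.6 in HOXA9 KO and 592 in NT KO cells (average adjusted p = 0.0514). Pf4 and Ppbp, platelet chemokine genes picked after their values were seen, differed with Ring1b present and hardly after its loss. Pf4 had 708 in HOXA9 KO and 833 in NT KO cells, and 128 in HOXA9 WT and 443 in NT WT cells. Ppbp had 1184 in HOXA9 KO and 1223 in NT KO cells, and 118 in HOXA9 WT and 678 in NT WT cells. P2ry12, an ADP receptor gene of platelets and of some macrophages, was the list's higher member, with 52.5 in HOXA9 KO and 13.5 in NT KO cells.

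Erythroid genes were lower or within 2-fold. Of 9 counted erythroid transcripts 6 were lower and none higher after loss, with a median of -1.53 (10.2% of all transcripts were lower). With Ring1b 6 of 13 were lower, against 7.30% of all transcripts. Gata1, the master regulator of red cells, platelets and mast cells, had 51.6 in HOXA9 KO and 1169 in NT KO cells, and 62.3 in HOXA9 WT and 680.1 in NT WT cells. It was 22.7-fold lower after loss (17.4 to 30.1), with an average of -3.95 ± 0.35 (SE, limma adjusted p = 0.0162). Gata2, its relative in stem and mast cells, was picked after its values were seen and had 811 in HOXA9 KO and 4514 in NT KO cells (average adjusted p = 0.0605). Mecom, a stem cell and leukaemia transcription factor gene, had 2.71 in HOXA9 KO and 379 in NT KO cells, against the lowest entry in HOXA9 WT and 171 in NT WT cells (average adjusted p = 0.0170). Mycn, a Myc family gene, was lower only in the after-loss pair, with 46.2 in HOXA9 KO and 572 in NT KO cells, against 265 in HOXA9 WT and 261 in NT WT cells. Over the whole list of stem and progenitor transcription factors, 8 of 20 counted transcripts were lower and 4 higher after loss, and 4 of 19 lower and 2 higher with Ring1b. Without transcripts above 0.5 reads per base 5 were lower after loss. Over all transcripts 10.2% were lower and 12.9% higher after loss, and 7.30% lower and 11.6% higher with Ring1b. Of the 22 genes of this list, 9 are also in another list. Of the stem and progenitor surface and signalling genes, 7 of 18 were lower and 2 higher after loss; Tek, the angiopoietin receptor gene, had 1.81 in HOXA9 KO and 126 in NT KO cells.

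Promoter windows of these genes were read from RefSeq for the letters AGATAA and its reverse complement TTATCT, the core recognised by GATA factors, over 250 bases before to 50 bases after the start on GRCm38.p6. They were found in 6 of 17 mast cell and basophil genes with a window (35.3%) and in 5 of 17 platelet genes (29.4%), against 12.7% of 27025 mouse genes. The match is a description of letters and not a binding site. The 250 bases upstream of 2 genes with a match are shown because these genes lie far apart between the HOXA9 and NT libraries in both states; capitals mark the match. The Fcer1a window is on the minus strand at chr1:173227230-173227479 and the Gp5 window on the minus strand at chr16:30310782-30311031, both written 5′ to 3′ of the gene.
Fcer1a: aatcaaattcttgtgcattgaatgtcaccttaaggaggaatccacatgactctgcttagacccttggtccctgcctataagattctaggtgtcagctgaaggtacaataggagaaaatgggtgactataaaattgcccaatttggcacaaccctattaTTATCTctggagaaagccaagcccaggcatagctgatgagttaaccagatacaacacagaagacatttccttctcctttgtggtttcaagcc
Gp5: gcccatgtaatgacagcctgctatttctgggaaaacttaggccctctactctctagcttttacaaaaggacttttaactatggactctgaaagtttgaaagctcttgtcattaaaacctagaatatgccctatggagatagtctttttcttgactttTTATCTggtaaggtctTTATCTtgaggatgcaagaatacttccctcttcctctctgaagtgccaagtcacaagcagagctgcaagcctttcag

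Genes higher in HOXA9 cells in both states included several with large folds after loss. Tmem47, a membrane protein gene of cell junctions, had 328 in HOXA9 KO and 2.08 in NT KO cells, and 300.5 in HOXA9 WT and 2.48 in NT WT cells. It was 158-fold higher after loss (43.5 to 1310, on 2 reads in NT KO cells), with an average of 6.59 ± 0.44 (SE, limma adjusted p = 0.00944). It was at the lowest entry in the MLL-AF9 and PML-RARa libraries after loss. Tgfbr3, a coreceptor gene of TGF-beta, had 821 in HOXA9 KO and 40.5 in NT KO cells, and 1423 in HOXA9 WT and 66.2 in NT WT cells (average 4.36 ± 0.26, adjusted p = 0.00664). Car4, a membrane carbonic anhydrase gene, had 977 in HOXA9 KO and 41.6 in NT KO cells, and 1270.2 in HOXA9 WT and 38.9 in NT WT cells (average adjusted p = 0.0284). Pyhin1, of the interferon-inducible HIN-200 family, had 1893 in HOXA9 KO and 54.0 in NT KO cells, and 561 in HOXA9 WT and 19.9 in NT WT cells (average adjusted p = 0.0139). For each of these 4 genes both HOXA9 libraries lay above both NT libraries. Vcam1, an adhesion receptor gene, had 963 in HOXA9 KO and 27.0 in NT KO cells, and 797 in HOXA9 WT and 134 in NT WT cells, with an average that did not pass (adjusted p = 0.138). Csn1s2a, a casein gene, and Svep1, an extracellular matrix gene, were at the lowest entry in NT KO cells, and had 234 and 178 in HOXA9 KO cells, at least 75.2-fold and 57.2-fold higher by the floor of 3 reads. Both were also higher with Ring1b present, but at 22.4 and 35.7 in HOXA9 WT cells.

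Interferon response genes were more often at least 2-fold higher after Ring1b loss than with Ring1b present, a change between the states that was not tested. Interferons are cytokines of antiviral defence, and they switch on many genes through STAT and IRF factors. Of 37 transcripts of 33 genes, 33 were counted after loss, of which 27 were higher and none lower, with a median of 1.94; the background was 12.9% higher. Of the 28 with 20 or more in both libraries, 22 were higher. With Ring1b present, 6 of 23 counted were higher and 3 lower (11.6% and 7.30% of all transcripts), with a median of 0.07. The summed values were 29110 in HOXA9 KO and 9055 in NT KO cells, and 5764 in HOXA9 WT and 4974 in NT WT cells. The HOXA9 KO library was the highest of these 4, and the NT KO library lay between it and the WT libraries.

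Ifit2, an antiviral protein gene that binds foreign RNA, had 1660.5 in HOXA9 KO and 141 in NT KO cells, against 64.8 in HOXA9 WT and 187 in NT WT cells. It was 11.8-fold higher after loss (9.87 to 14.1) and lower with Ring1b present. Gbp3, a guanylate-binding protein gene induced by interferon, was higher in both states, with 762 in HOXA9 KO and 86.2 in NT KO cells, and 261 in HOXA9 WT and 41.4 in NT WT cells. It was 1 of 2 transcripts of the list whose average passed (2.88 ± 0.40, limma adjusted p = 0.0469). Cxcl10, an interferon-induced chemokine gene, had 457 in HOXA9 KO and 59.2 in NT KO cells, and 14.9 in HOXA9 WT and 22.3 in NT WT cells. Mx1, an antiviral GTPase gene, had 70.6 in HOXA9 KO and 3.12 in NT KO cells in its better-read transcript, and stood at the lowest entry in both WT libraries. Rtp4 had 634 in HOXA9 KO and 160.0 in NT KO cells, and 1.66 in HOXA9 WT and 12.4 in NT WT cells. The WT libraries were low for these 3 genes. Named after their values were seen, Ifit3 had 437 in HOXA9 KO and 61.3 in NT KO cells, and Rsad2, the antiviral enzyme viperin, had 1923 in HOXA9 KO and 313 in NT KO cells. Ifit3 had 1.66 in HOXA9 WT and 3.31 in NT WT cells, and Rsad2 had 39.0 in HOXA9 WT and 45.5 in NT WT cells. For Cxcl10, Rtp4, Ifit3 and Rsad2 both KO libraries exceeded both WT libraries, and HOXA9 KO exceeded NT KO. For Mx1 the NT KO value rested on 3 reads, too few to set it above the WT libraries. Bst2 and Ifitm3, also interferon-inducible, lay within 2-fold, with 794.5 and 744 in HOXA9 KO and 677 and 620.3 in NT KO cells.

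**Figure D3:**
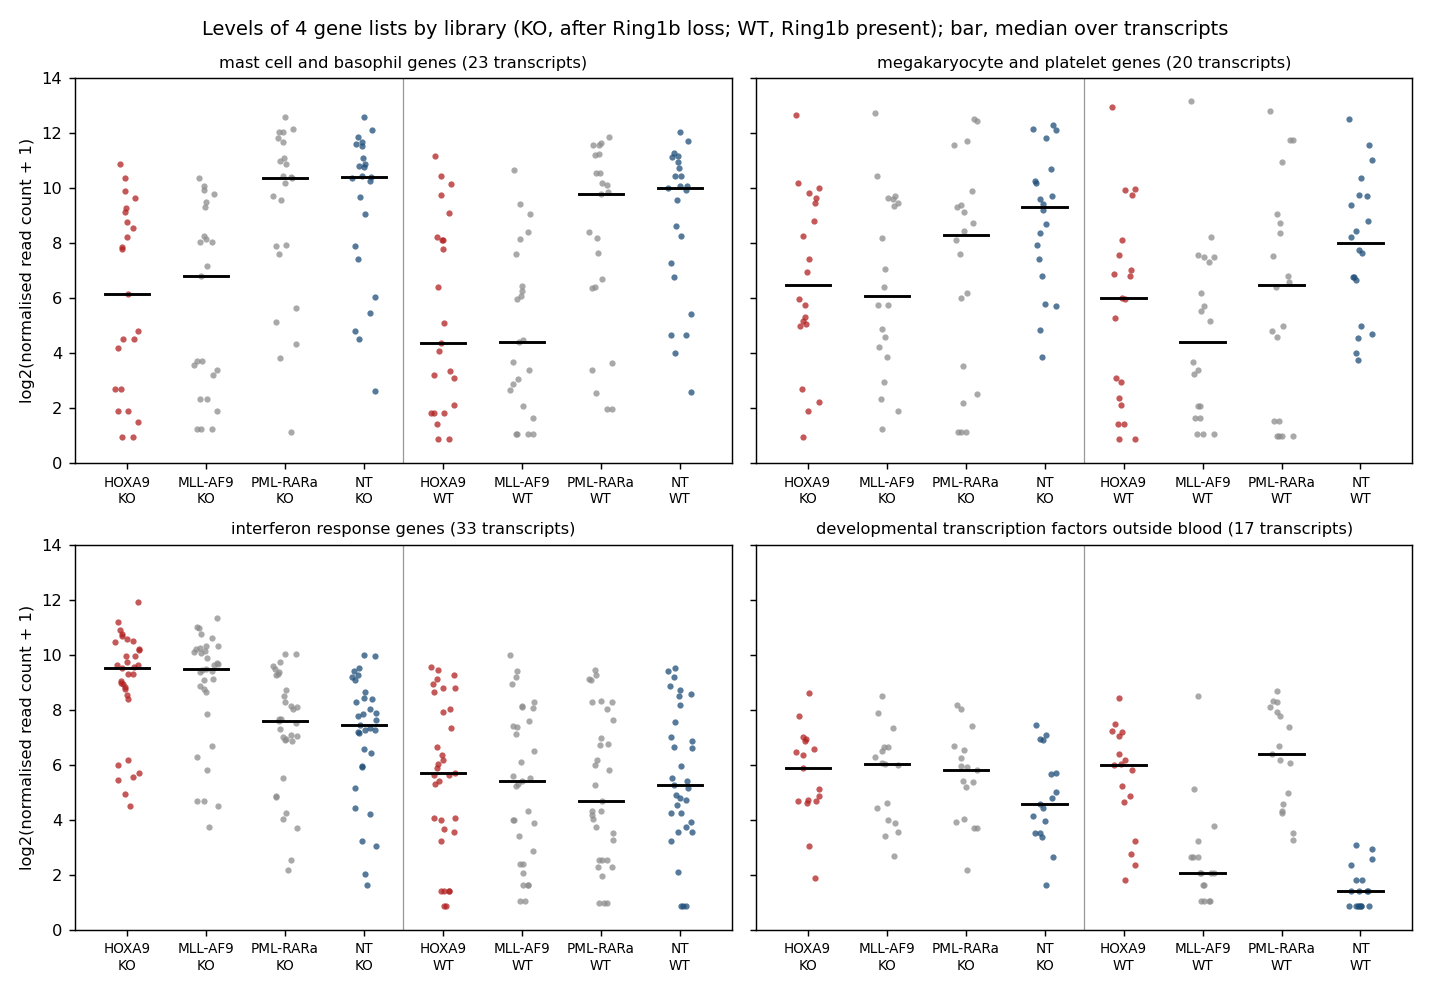
Log2(normalised read count + 1) of the transcripts of 4 gene lists counted after loss, by library; each point is a transcript and each bar the median over transcripts, with Ring1b KO libraries left of the grey line and Ring1b WT libraries right of it, HOXA9 in red and NT in blue. Mast cell and platelet genes are lower in HOXA9 than in NT libraries on both sides, interferon genes are highest in the HOXA9 KO and MLL-AF9 KO libraries, and developmental transcription factor genes are low in NT WT cells and higher in NT KO cells.

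Interferon-stimulated response elements were searched in the same promoter windows as GAAA, any 2 bases and GAAA again, or on the other strand TTTC, any 2 bases and TTTC. These letters were found in 15 of the 24 interferon response genes with a window (62.5%), against 3.99% of 27025 genes, and in 0 of 17 mast cell and 2 of 17 platelet genes. The windows of 3 genes with values above are printed because they show the element beside the genes with large differences after loss, in RefSeq sequence of GRCm38.p6, 5′ to 3′ of the gene, with each match in capitals. The Ifit3 window is on the plus strand at chr19:34583279-34583528, with 2 matches that begin 156 and 122 bases upstream of the start. The Rsad2 window is on the minus strand at chr12:26456453-26456702, with a match 120 bases upstream. The Cxcl10 window is on the minus strand at chr5:92348890-92349139, with a match 213 bases upstream.
Ifit3: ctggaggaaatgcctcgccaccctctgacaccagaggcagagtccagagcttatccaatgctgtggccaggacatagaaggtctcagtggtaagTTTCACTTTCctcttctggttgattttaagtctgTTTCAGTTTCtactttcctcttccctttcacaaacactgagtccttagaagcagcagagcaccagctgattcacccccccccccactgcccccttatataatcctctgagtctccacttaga
Rsad2: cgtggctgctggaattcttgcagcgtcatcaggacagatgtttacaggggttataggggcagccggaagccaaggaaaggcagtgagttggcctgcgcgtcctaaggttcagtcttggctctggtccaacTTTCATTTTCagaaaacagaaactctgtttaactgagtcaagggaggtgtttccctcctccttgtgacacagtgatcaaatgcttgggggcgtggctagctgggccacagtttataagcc
Cxcl10: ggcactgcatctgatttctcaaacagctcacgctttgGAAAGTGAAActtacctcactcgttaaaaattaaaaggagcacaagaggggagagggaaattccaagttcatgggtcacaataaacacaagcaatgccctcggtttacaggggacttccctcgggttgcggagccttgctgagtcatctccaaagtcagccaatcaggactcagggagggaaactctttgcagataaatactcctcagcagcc

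Several other families contributed to the genes higher after loss alone. Pydc3, an interferon-inducible PYHIN gene, had 224 in HOXA9 KO and 3.12 in NT KO cells, against 4.15 in HOXA9 WT and 2.48 in NT WT cells. Ifi205, of the same cluster, had 185 in HOXA9 KO and 9.35 in NT KO cells, against 1.66 in HOXA9 WT and 2.48 in NT WT cells. Ms4a4c and Ms4a6b, membrane-spanning genes of myeloid cells, had 490.5 and 438 in HOXA9 KO and 17.7 and 66.5 in NT KO cells, against 9.13 and 6.64 in HOXA9 WT and 13.2 and 43.8 in NT WT cells. Both gene families hold near-identical copies whose reads may be shared. None of these 4 genes passed the averaged test, and each of them lay far below its HOXA9 KO value in both WT libraries.

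Monocyte, macrophage and dendritic cell genes were also higher in the summed values, with 55660 in HOXA9 KO and 36780 in NT KO cells, and 18440 in HOXA9 WT and 17630 in NT WT cells. Of 50 transcripts 42 were counted after loss, 15 of them higher and 4 lower, with a median of 0.65. Over all transcripts 12.9% were higher and 10.2% lower. With Ring1b present 4 of 36 were higher and 11 lower, against 11.6% and 7.30% of all transcripts. In this list 1 transcript was at the lowest entry in HOXA9 KO cells and 2 in NT KO cells. The part of such cells in the interferon difference was not tested. Siglec1, a sialic acid receptor gene of macrophages that interferon induces, had 1012 in HOXA9 KO and 46.8 in NT KO cells, and 8.30 in HOXA9 WT and 3.31 in NT WT cells. Irf8 and Klf4, transcription factors of monocytes and dendritic cells, were higher in both states. Irf8 had 1512 in HOXA9 KO and 273 in NT KO cells, and 892 in HOXA9 WT and 138 in NT WT cells. Klf4 had 739 in HOXA9 KO and 104 in NT KO cells, and 291 in HOXA9 WT and 64.5 in NT WT cells. Marco, a scavenger receptor gene, went the other way, with 83.3 in HOXA9 KO and 451 in NT KO cells, and Cx3cr1, the fractalkine receptor gene, had 6.33 in HOXA9 KO and 46.8 in NT KO cells. Complement C1qa and the fatty acid binding protein gene Fabp4, chosen after their values were seen, differed with Ring1b and not after its loss. C1qa had 659 in HOXA9 KO and 622 in NT KO cells, and 7.47 in HOXA9 WT and 98.5 in NT WT cells. Fabp4 had 532 in HOXA9 KO and 396 in NT KO cells, and 9.13 in HOXA9 WT and 88.5 in NT WT cells.

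Chemokine genes were mostly lower with Ring1b and mostly within 2-fold after its loss, a change between the states that was not tested. With Ring1b present 10 of 15 were lower in HOXA9 cells and none higher, with a median of -1.85, whereas after loss 2 of 20 were lower and 5 higher, with a median of 0.02. Over all transcripts 11.6% were higher and 7.30% lower with Ring1b, and 12.9% higher and 10.2% lower after loss. Without transcripts above 0.5 reads per base 2 chemokine transcripts were higher. Ccl8, a monocyte attractant gene, was at the lowest entry in HOXA9 WT and had 81.9 in NT WT cells, but after loss had 447 in HOXA9 KO and 305 in NT KO cells. Among inflammatory cytokine and receptor genes 15 of 29 were higher and 3 lower after loss, and 8 of 24 higher and 4 lower with Ring1b, and the 8 higher with Ring1b were also higher after loss. Tlr9, a DNA sensor gene, had 341 in HOXA9 KO and 12.5 in NT KO cells, 27.4-fold higher (15.5 to 53.4). Il6 stayed lower, with 70.6 in HOXA9 KO and 564 in NT KO cells, and 62.3 in HOXA9 WT and 424 in NT WT cells (average -2.86 ± 0.39, SE, limma adjusted p = 0.0463). Of 9 MHC class II transcripts 3 were higher and none lower after loss, against 3 higher and 2 lower of 9 with Ring1b.

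Primary granule genes of neutrophil precursors, which encode the proteases and peroxidase stored at the promyelocyte stage, reached 2-fold between HOXA9 and NT cells after loss and not with Ring1b, a change between the states that was not tested. Of 10 counted transcripts 5 were higher and 1 lower, with a median of 1.03, and with Ring1b present none of 11 differed by 2-fold in either direction. Over all transcripts 12.9% were higher and 10.2% lower after loss, and 11.6% higher and 7.30% lower with Ring1b. Without transcripts above 0.5 reads per base none of the list was called. That limit takes out abundant members, such as Elane and Prtn3 at 1.7 and 1.72 reads per base in their highest libraries. Flattening of counts at such levels was not tested. Elane, the neutrophil elastase gene, had 1096 in HOXA9 KO and 204 in NT KO cells, against 1334 in HOXA9 WT and 1272 in NT WT cells. Prtn3, the proteinase 3 gene, had 1117 in HOXA9 KO and 347 in NT KO cells, against 1376 in HOXA9 WT and 1458 in NT WT cells. Mpo, the myeloperoxidase gene picked after its values were seen, had 3028 in HOXA9 KO and 1065 in NT KO cells, against 3511 in HOXA9 WT and 3801 in NT WT cells. Among these 4 libraries NT KO alone stood apart for these 3 genes, and the other 3 were closer to each other. PML-RARa KO cells were also low, with 183 for Elane and 424 for Prtn3, whereas MLL-AF9 KO cells had 1640 and 1337. Late granule and maturation genes behaved otherwise, with 9 of 22 lower and 2 higher after loss and 8 of 23 lower with Ring1b. Without transcripts above 0.5 reads per base 1 was lower and none higher after loss. Stfa2, a cysteine protease inhibitor gene with near-identical copies, had 64.2 in HOXA9 KO and 323 in NT KO cells, and 60.6 in HOXA9 WT and 334 in NT WT cells (average adjusted p = 0.0141, limma).

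Proliferation genes differed in the same direction, mostly by less than 2-fold. Of 33 counted transcripts 32 had a positive difference after loss and 6 reached 2-fold (12.9% of all transcripts did), with a median of 0.74. With Ring1b 3 of 34 were lower by 2-fold (7.30% of all transcripts were) and none higher, with a median of -0.54. The summed values were 29030 in HOXA9 KO and 18490 in NT KO cells, and 38980 in HOXA9 WT and 53560 in NT WT cells. Thus both WT libraries exceeded both KO libraries, and the order of HOXA9 and NT differed between the states. Cdt1, a replication licensing gene, had 690.4 in HOXA9 KO and 278 in NT KO cells, against 957 in HOXA9 WT and 1018 in NT WT cells. Cenpe, a kinetochore motor gene, had 872 in HOXA9 KO and 385 in NT KO cells, against 1219.6 in HOXA9 WT and 2000.5 in NT WT cells. Among cell cycle inhibitors and D-type cyclins, 1 of 13 was higher and 1 lower. Ccnd1, the cyclin D1 gene, had 981 in HOXA9 KO and 2105 in NT KO cells, against 832 in HOXA9 WT and 146 in NT WT cells, so that the NT WT library stood apart. Cdkn2b, the p15 inhibitor gene beside the deleted Cdkn2a locus, had 364 in HOXA9 KO and 656 in NT KO cells, and 320.5 in HOXA9 WT and 127 in NT WT cells.

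Developmental transcription factor genes outside blood are classical targets of Polycomb silencing, and most of those measured lay below the count minimum. With Ring1b present all 15 counted transcripts were higher in HOXA9 cells (11.6% of all transcripts were), with a median of 4.93. Each of them had an NT WT value below 20 and was counted only through its HOXA9 value. The direction was thus fixed by the count minimum, though not the 2-fold size. After loss 7 of 17 were higher and 3 lower (12.9% and 10.2% of all transcripts), with a median of 0.76, and 9 of the 17 were counted through 1 library alone. Over all 48 measured transcripts, without the count minimum, the median was 0.09 after loss and 0.54 with Ring1b, so that the medians of the counted transcripts rest largely on that minimum. The summed values over the 48 transcripts were 1551 in HOXA9 KO and 897.7 in NT KO cells, and 1528 in HOXA9 WT and 94.3 in NT WT cells. The HOXA9 sums were alike in both states, and NT WT was the low library of the 4. Zic2, a zinc finger gene of the developing brain, had 121 in HOXA9 KO and 119 in NT KO cells, against 146 in HOXA9 WT and 1.65 in NT WT cells. Zic1, its paralogue, remained 12.4-fold higher (6.58 to 26.5), with 129 in HOXA9 KO and 10.4 in NT KO cells, and 349 in HOXA9 WT and 2.48 in NT WT cells. Pitx1, a hindlimb homeobox gene, had 389 in HOXA9 KO and 2.08 in NT KO cells, and 71.4 in HOXA9 WT against the lowest entry in NT WT cells. Foxf2, a forkhead gene of mesenchyme, was higher in NT KO cells, with 7.24 in HOXA9 KO and 134 in NT KO cells, against 2.49 in HOXA9 WT and 2.48 in NT WT cells. None of the 16 transcripts of the list in the averaged fit passed it.

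Among the genes named for the largest change between the states were a pair of secreted growth factors. Tgfb2, a TGF-beta ligand gene, had 60.6 in HOXA9 KO and 7.27 in NT KO cells, against 897 in HOXA9 WT and the lowest entry in NT WT cells. Wnt10b, a Wnt ligand gene, had 78.7 in HOXA9 KO and 39.5 in NT KO cells, against 311 in HOXA9 WT and 1.65 in NT WT cells. For both genes HOXA9 KO lay below HOXA9 WT and NT KO lay above NT WT. Of 12 counted neuronal and matrix transcripts 4 were higher and 4 lower after loss (12.9% and 10.2% of all transcripts). With Ring1b 6 of 11 were higher and 1 lower (11.6% and 7.30% of all transcripts). Nes, the neural stem cell filament gene, had 341 in HOXA9 KO and 126 in NT KO cells, and 462 in HOXA9 WT and 8.27 in NT WT cells. Cdh2, the N-cadherin gene, stayed lower in HOXA9 cells, with 5.43 in HOXA9 KO and 506 in NT KO cells, and 2.49 in HOXA9 WT and 113 in NT WT cells (average adjusted p = 0.0319, limma). Timp3, a metalloproteinase inhibitor gene, was lower after loss alone, with 121 in HOXA9 KO and 1367 in NT KO cells, against 288 in HOXA9 WT and 256 in NT WT cells.

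Polycomb subunit genes differed by 2-fold after loss no more often than transcripts at large, though both lists are small. Of 26 PRC1 and 18 PRC2 transcripts, 16 and 10 were counted. Of 16 counted PRC1 subunit transcripts 1 was higher and none lower after loss, with a median of 0.10. It was Kdm2b, a CpG-binding subunit gene, with 24.4 in HOXA9 KO and 9.35 in NT KO cells, a call that ended with a pseudocount of 10. Of 10 PRC2 transcripts 1 was higher and 1 lower. Jarid2, which guides PRC2 to DNA, had 62.4 in HOXA9 KO and 11.4 in NT KO cells, and Phf1, a PRC2 accessory gene, had 333 in HOXA9 KO and 849.9 in NT KO cells. These shares are below the 12.9% and 10.2% of all transcripts for PRC1 and near them for PRC2.

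Metabolic, growth and survival lists are read against 12.9% higher and 10.2% lower over all transcripts. None of 23 ribosome biogenesis transcripts differed by 2-fold after loss, and 1 of 27 cholesterol and fatty acid synthesis transcripts was higher and 1 lower. Among 21 amino acid stress and serine synthesis transcripts 3 were higher. Stc2, a stress-induced hormone gene, had 309 in HOXA9 KO and 95.6 in NT KO cells, and 742 in HOXA9 WT and 281 in NT WT cells (average 1.54 ± 0.20, SE, limma adjusted p = 0.0408). Of 8 Myc network transcripts 1 was higher and 1 lower, of 22 p53 target transcripts 2 were higher and 2 lower, and of 17 BCL2 family transcripts 4 were higher and 2 lower. With a pseudocount of 10 the higher BCL2 family count was 2. Bbc3, the pro-apoptotic Puma gene, had 367 in HOXA9 KO and 859 in NT KO cells.

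The PML-RARa and MLL-AF9 libraries after Ring1b loss can be set beside these values, although every difference from NT shares the NT KO library and so no overlap was computed. PML-RARa and MLL-AF9 are leukaemia fusion proteins introduced into the same kind of cells. For mast cell and basophil genes the median difference from NT KO was -3.58 in HOXA9, -3.74 in MLL-AF9 and 0.01 in PML-RARa cells. For platelet genes it was -2.29 in HOXA9, -2.47 in MLL-AF9 and -0.98 in PML-RARa cells. For interferon response genes it was 1.94 in HOXA9, 1.94 in MLL-AF9 and 0.19 in PML-RARa cells. In these 3 lists the HOXA9 value lay close to the MLL-AF9 value, with PML-RARa nearer to NT. For proliferation genes the medians were 0.74 in HOXA9, 0.12 in MLL-AF9 and -0.21 in PML-RARa cells. Mcpt4 had 21.7 in HOXA9 KO, 8.19 in MLL-AF9 KO, 1312 in PML-RARa KO and 1367 in NT KO cells. The order of the contexts was not the same for every gene. Mecom had 2.71 in HOXA9 KO, 109 in MLL-AF9 KO, 256 in PML-RARa KO and 379 in NT KO cells. Tmem47, already given, was high in HOXA9 KO cells and at the lowest entry in MLL-AF9 KO cells. Stfa3, a cysteine protease inhibitor gene with near-identical copies, had 38.9 in HOXA9 KO, 377 in MLL-AF9 KO, 80.9 in PML-RARa KO and 282 in NT KO cells.

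**Figure D4:**
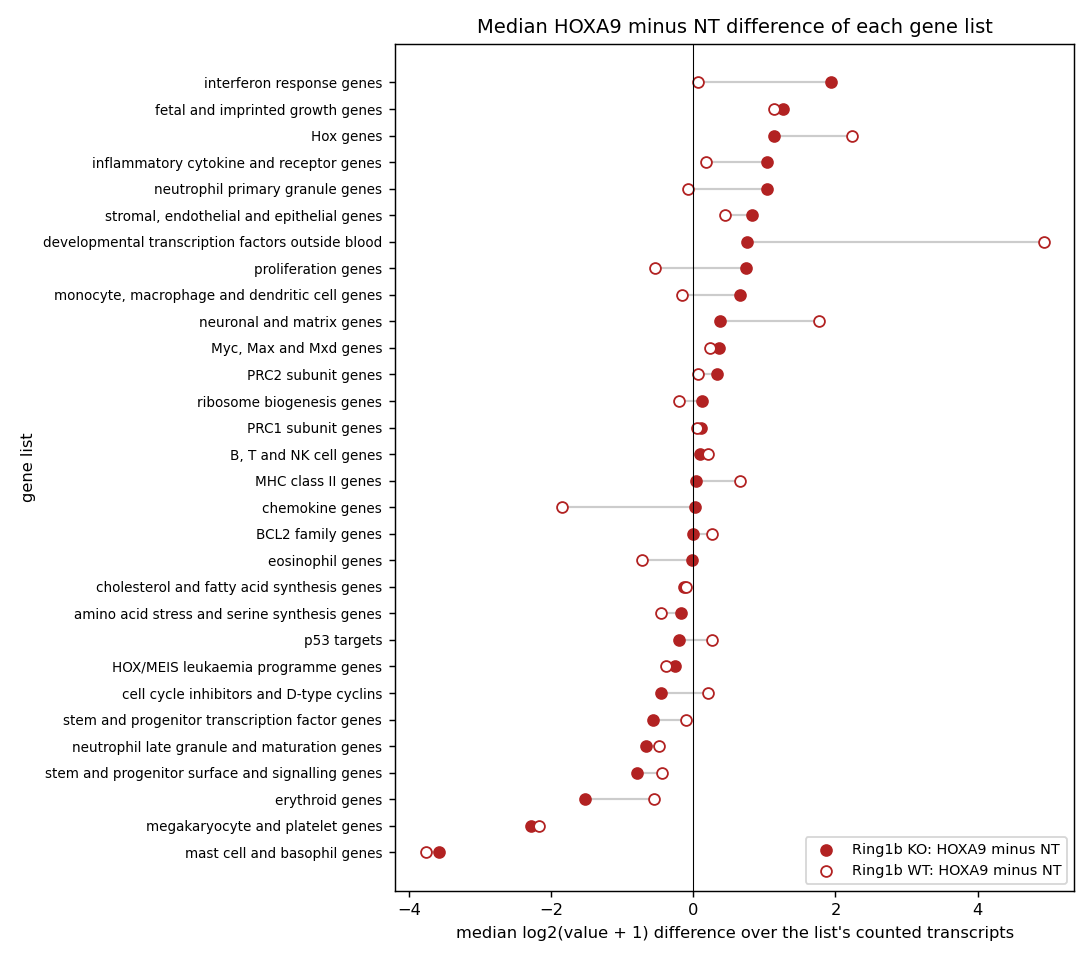
Median HOXA9 minus NT difference on the log2(value + 1) scale over the counted transcripts of each of the 30 gene lists, with filled points for the Ring1b KO pair and open points for the Ring1b WT pair. Mast cell (-3.58 and -3.77) and platelet genes (-2.29 and -2.18) have similar medians in both states, and interferon genes stand at 1.94 after loss and 0.07 with Ring1b. The developmental transcription factors, at 0.76 and 4.93, are counted mostly through 1 library, and over all 48 measured transcripts their medians are 0.09 and 0.54.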

How the data were processed

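RNA was sequenced from 8 libraries (TruSeq, per the labels' protocols), and the authors deposited 4 tables of 19353 RefSeq transcripts. Per the submitters' processing notes, TopHat, DESeq and mm9 were used; versions and the counting tool were not given in the sources used here. The deposited values are a signal, normalised read counts headed as base means per the file headers, scaled by the authors jointly over the 8 libraries. Dividing each column by its smallest value gave whole reads for every transcript within a tolerance of 0.02. Strand use in counting is not given. Gene symbols that a spreadsheet had turned into dates were restored for 35 transcripts, and 17553 symbols resulted.

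Differences were computed as log2(value + 1), HOXA9 minus NT, for transcripts with at least 20 in the higher library, and 2-fold was called. Intervals of folds are exact (Clopper-Pearson, 95%) on the reads and cover counting error only. A transcript at its lowest entry in 1 library was set against a floor of 3 reads per library. PCR reads carried no molecular identifiers. The averaged difference was fitted with limma 3.58.1 (R 4.3.3) on all 8 libraries with context and Ring1b state as terms, for transcripts with a mean of at least 20. The labels do not say whether libraries came from separate cultures, so its p-values measure only the spread between these libraries. edgeR 4.0.16 and DESeq2 1.42.0 on the recovered reads, other pseudocounts, filters and scalings were the alternatives. The scripts were tested on simulated data with known changes. Python 3.11.15 was used.

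The comparison and the 30 gene lists were chosen with earlier results of these data known. Genes were named by rule: the 12 highest and 12 lowest differences after loss with at least 100 in the higher library, the 10 highest and 10 lowest in both states, the 8 highest and 8 lowest by the change between the states, up to 3 per direction and list past 2-fold, and Hoxa9, Rnf2, Ring1, Cdkn2a, Cdkn2b and Meis1. Bst2, C1qa, Cd34, Cpa3, Csf1r, Fabp4, Fcer1a, Gata2, Ifit3, Ifitm3, Mpo, Pf4, Ppbp and Rsad2 fell outside it and were chosen after their values were seen. Promoter sequences are those of RefSeq on GRCm38.p6 and not of the build of the reads.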

Additional observations from a re-analysis of the deposited data

Results flagged for a closer look

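Among the named genes, 10 lay at least 2-fold one way after Ring1b loss and at least 2-fold the other way with Ring1b present. With 1 library per side the difference between the states was not tested. Of all transcripts, 37 were higher after loss and lower before it, and 59 were lower after loss and higher before it. All values that follow are log2(value + 1) differences, HOXA9 minus NT, after loss and then with Ring1b.

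The antiviral gene Ifit2 stood at 3.55 after loss and -1.52 with Ring1b. Inhba, the activin A subunit gene, stood at 3.49 after loss and -1.48 with Ring1b, Ms4a6b at 2.70 after loss and -2.55 with Ring1b, P2ry12 at 1.88 and -1.61, and the chemokine gene Ccl24 at 1.45 and -2.48. These 5 genes were higher in HOXA9 cells after loss alone. Spock2, a matrix proteoglycan gene, stood at -1.48 after loss and 6.78 with Ring1b, the homeobox gene Six2 at -1.04 and 3.31, Ccnd1 at -1.10 and 2.51, the embryonic globin gene Hbb-y at -3.91 and 2.02, and the T cell transcription factor gene Gata3 at -1.71 and 1.10. These other 5 were lower after loss alone. The Six2 call after loss ended with a pseudocount of 10.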

How the results depend on the processing

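The counts of transcripts at least 2-fold apart followed the filter. With no filter on low values 2309 were higher and 2004 lower after loss, and 893 higher and 774 lower in both states. With a minimum of 100 842 were higher and 654 lower after loss, and 312 higher and 247 lower in both states. Fewer or more transcripts enter by construction. Pseudocounts of 0.5 and 10, TMM scaling, centring on the median, leaving out transcripts above 0.5 reads per base and 1 transcript per symbol kept these counts within 1.5 times. The share of higher calls ranged from 53.5% to 56.4% (55.9% as reported), and TMM scaling moved the median by -0.02. No difference of a named gene reversed, but the size of 46 of the 158 named differences moved with a pseudocount of 10. Of 149 called named genes, 10 lost the 2-fold call with a pseudocount of 10 (Bcl2l11, Ccr3, Hoxb5, Hoxd8, Kdm2b, Myb, Nupr1, Prg3, Sesn1 and Six2) and Nupr1 with TMM scaling. Of 60 counts over the lists, 23 moved by over 1.5 times with the minimum of 100, 14 with no filter and 11 without abundant transcripts.

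For the averaged difference, limma called 66 higher and 168 lower. DESeq2 called 503 higher and 533 lower, and limma without the MLL-AF9 pair called 35 higher; the cause was not tested. edgeR called 76 higher and 196 lower. No paired analysis was possible because each group has 1 library and the labels give no replicate numbers. Depth limits transcripts of few reads, where intervals of the fold span more than 10-fold for Gnai1 and Tmem47.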

Other observations

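Growth genes of the fetus and imprinted genes were among the higher ones in both states. Of 11 counted transcripts after loss 6 were higher and 2 lower, where 12.9% and 10.2% of all transcripts were. Of 10 with Ring1b 6 were higher and 2 lower, where the shares were 11.6% and 7.30%. Igf2bp3, an RNA-binding protein gene of fetal cells, had 1243 in HOXA9 KO and 457 in NT KO cells, and 988 in HOXA9 WT and 108 in NT WT cells. Igf2bp1, its paralogue, had 375 in HOXA9 KO and 123 in NT KO cells, and 519 in HOXA9 WT and 4.96 in NT WT cells. H19, an imprinted noncoding RNA gene, was lower, with 4.52 in HOXA9 KO and 384 in NT KO cells, and 23.2 in HOXA9 WT and 137 in NT WT cells. None of the 10 transcripts of the list in the averaged limma fit passed it.

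Genes of stromal, endothelial and epithelial cells gave 6 higher and 2 lower of 16 counted after loss, and 5 higher and 2 lower of 13 with Ring1b. Here and for the lists that follow, 12.9% of all transcripts were higher and 10.2% lower after loss. With Ring1b these shares were 11.6% and 7.30%. Flt1, a receptor gene for vascular endothelial growth factor, had 1593 in HOXA9 KO and 176 in NT KO cells, and 938 in HOXA9 WT and 197 in NT WT cells. Tie1, an endothelial receptor gene, went the other way, with 14.5 in HOXA9 KO and 79.0 in NT KO cells, and 8.30 in HOXA9 WT and 82.7 in NT WT cells (average limma adjusted p = 0.0259). Of 8 counted lymphoid transcripts 1 was higher and 3 lower after loss. Without transcripts above 0.5 reads per base 1 was lower. Gzmb, the granzyme B gene, which mast cells also express, had 399 in HOXA9 KO and 2347 in NT KO cells, and 392 in HOXA9 WT and 1846 in NT WT cells (average limma adjusted p = 0.0162). Of 6 eosinophil transcripts 2 were higher and 1 lower after loss. With a pseudocount of 10 none was higher.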
